A study of Rattus norvegicus with 12 samples.

Results

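The genes described here are 10 components of the presynaptic release machinery: Syn1, Syn2, Syn3, Syp, Syt1, Snap25, Vamp1, Vamp2, Stx1a and Sv2b. They were taken as every probe set (a group of short oligonucleotides that together measure a transcript) whose annotation gave exactly 1 symbol equal to one of these names. All 10 genes were on the array, with 19 probe sets out of 31042 tested and out of 14217 genes that could be named. Sucrose was given to 12 male Long-Evans rats aged 2 to 3 months, which had an extra bottle of up to 4 mL of 30% sucrose 2 times a day for 14 days and were killed on the morning of day 15. The 12 control rats, of the same strain, sex and age, had water in the extra bottle on the same schedule, and all rats were single housed with free chow and water. The basolateral amygdala (BLA), a forebrain region rich in glutamatergic projection neurons, was pooled over both sides and 2 rats of one group for each array, which gave 6 sucrose and 6 control arrays.

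Transmitter is stored in synaptic vesicles, which synapsins tether to one another and to the cytoskeleton, and which carry integral proteins such as synaptophysin and SV2. A vesicle fuses when its SNARE protein synaptobrevin (VAMP) zips together with the plasma membrane SNAREs syntaxin-1 and SNAP-25. Synaptotagmin-1 on the vesicle senses calcium and triggers that step. In the BLA, as in other forebrain regions, this machinery serves release from glutamatergic and from GABAergic terminals, and its proteins also sit in the terminals of axons from elsewhere whose messenger RNA is made outside the dissected tissue.

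Every value is the log2 of a deposited ratio of 1 array to the mean of the 6 control arrays. Such a ratio keeps no signal level, so these genes cannot be ranked by abundance and the presence of BLA markers cannot be checked. In tissue, fewer cells of a type and less RNA per cell cannot be told apart. Of the 8 marker lists examined, the one for choroid plexus stood out in sucrose array 1, at 1.72, against -0.32 to 0.49 in the other sucrose arrays and -0.34 to 0.24 in controls. The mean of 6 measured pallial excitatory neuron markers (9 listed) ran from -0.06 to 0.12 in sucrose and from -0.08 to 0.07 in control arrays. That of 9 striatal and central amygdala markers (10 listed) ran from -0.26 to 0.14 in sucrose and from -0.13 to 0.11 in control arrays. None of the genes on the 8 lists passed the adjusted test described next. At an unadjusted limma p under 0.05, 1 of the 6 pallial genes was higher after sucrose and 1 lower. The mean of that list therefore joins genes that moved in opposite directions. On the other lists only 1 microglial gene was past that p, and it was lower.

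The comparison asks whether the messenger RNA of the release machinery differs after a history of sucrose snacks. No member passed the test: limma called 0 of the 19 probe sets at an adjusted p of 0.05, and it called 0.00% of all probe sets on the array. The lowest adjusted p of a member was 0.422, for a Syn2 probe set. At an unadjusted p under 0.05 stood 1 probe set that was higher after sucrose (Syn2) and 1 that was lower (Stx1a), beside 4.50% higher, 3.07% lower and 7.57% in either direction over the whole array. Of the 19 differences 10 were above 0 and 9 below, with a median of 0.00 and a median size of 0.03, which over all probe sets were -0.01 and 0.04. The groups overlapped for all 19 probe sets, while they did not overlap for 0.425% of all probe sets. The authors' deposited table of 145 selected probe sets holds 0 of the 19.

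**Figure D1:**
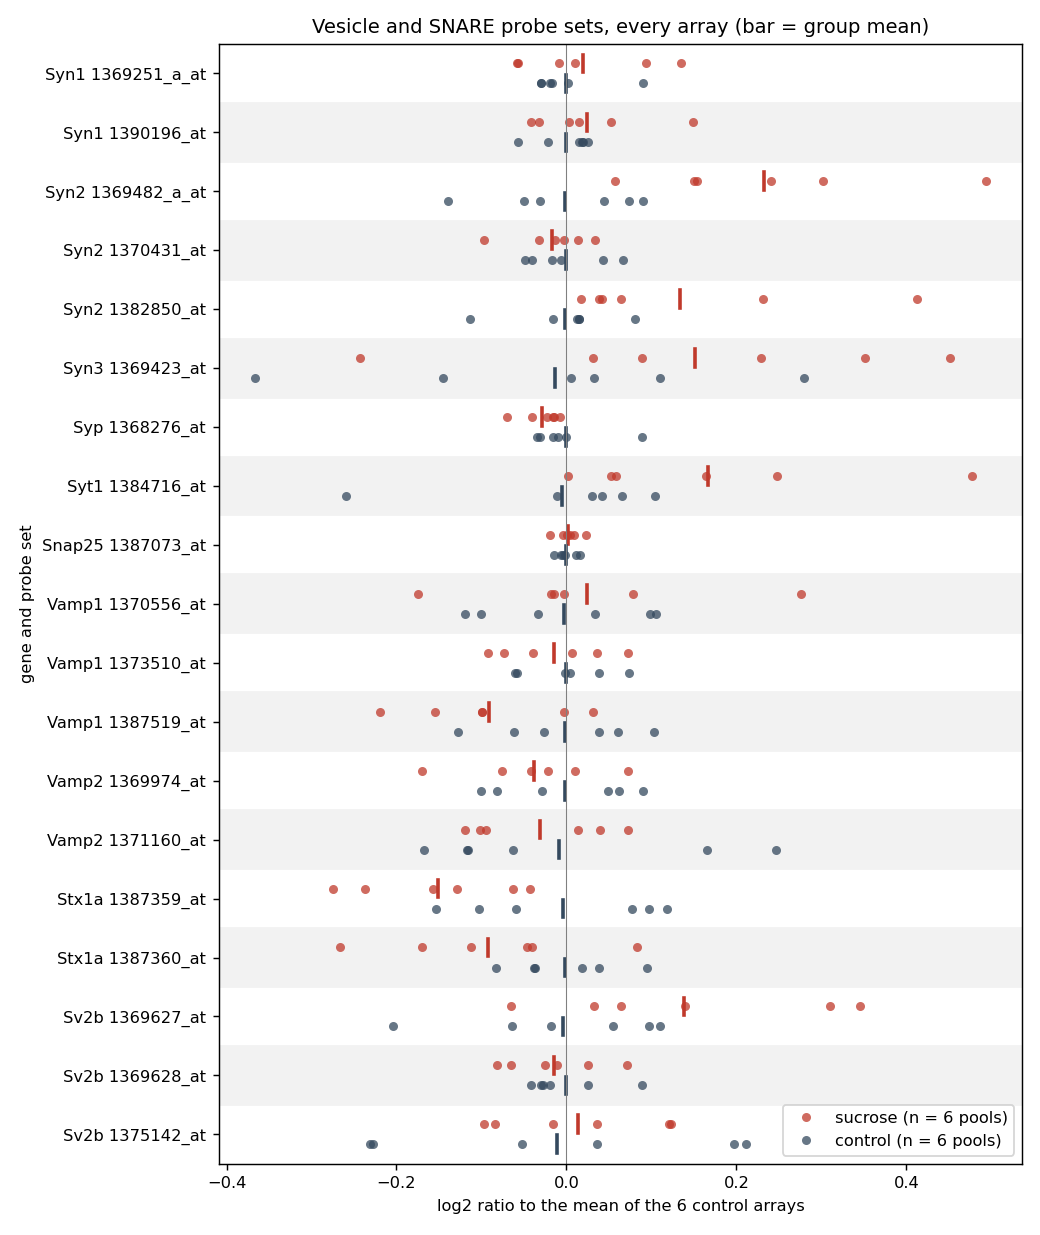
Log2 ratio to the control mean (horizontal axis) for the 19 probe sets (rows), with each dot 1 array, sucrose in red above control in blue and short bars at the group means, n = 6 pools each. The groups overlap in every row, Syn2 1369482_a_at has the widest gap between the means, and the 12 dots of Snap25 lie almost on one another.

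The upstream sequences of 4 genes are shown because Syn2 and Stx1a held the probe sets of lowest p in the upward and downward direction, while Syn1 and Vamp1 carry a cAMP response element, the site read by CREB factors. The 250 bases before each gene's start were taken from RefSeq, where 8 of the 10 genes were matched. Snap25 and Syn3 were not matched. Capitals mark a match, on either strand, to the letters TGACGTCA (cAMP response element), GGGCGG (GC box) or GCGNGGGCG (the motif of Egr factors).
Syn2 (GRCr8 chr4:149858669-149858918, + strand): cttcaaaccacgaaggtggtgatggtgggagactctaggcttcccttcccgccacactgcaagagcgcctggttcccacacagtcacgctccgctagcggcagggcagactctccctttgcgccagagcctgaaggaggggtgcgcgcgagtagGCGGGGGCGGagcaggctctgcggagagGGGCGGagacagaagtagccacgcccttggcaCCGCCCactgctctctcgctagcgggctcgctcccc
Stx1a (GRCr8 chr12:27306472-27306721, - strand; 76 of its bases lie inside the annotated gene span): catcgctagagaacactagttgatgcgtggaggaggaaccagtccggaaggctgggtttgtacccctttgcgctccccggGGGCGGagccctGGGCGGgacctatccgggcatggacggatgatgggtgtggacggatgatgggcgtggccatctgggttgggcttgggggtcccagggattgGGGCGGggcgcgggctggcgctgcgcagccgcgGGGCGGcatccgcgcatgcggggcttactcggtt
Syn1 (GRCr8 chrX:3725495-3725744, + strand): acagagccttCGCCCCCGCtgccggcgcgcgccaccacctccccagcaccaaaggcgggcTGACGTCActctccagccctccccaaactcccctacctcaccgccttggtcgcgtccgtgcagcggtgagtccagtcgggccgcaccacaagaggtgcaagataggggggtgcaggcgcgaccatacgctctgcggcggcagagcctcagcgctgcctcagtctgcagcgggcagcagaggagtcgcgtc
Vamp1 (GRCr8 chr4:159698644-159698893, + strand): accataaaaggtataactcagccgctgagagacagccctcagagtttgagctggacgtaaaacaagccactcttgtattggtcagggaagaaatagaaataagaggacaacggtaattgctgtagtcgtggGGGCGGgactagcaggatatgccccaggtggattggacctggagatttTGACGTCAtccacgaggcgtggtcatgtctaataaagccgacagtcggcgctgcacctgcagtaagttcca
The Syn2 stretch held 3 GC boxes, 1 of which overlapped an Egr match, and the Stx1a stretch held 4 GC boxes and no Egr match. Syn1 had a cAMP response element whose first base lay 190 bases before the start, and Vamp1 had one at 71 bases. Among the 8 matched genes, 2 had a cAMP response element, 6 a GC box and 5 an Egr match. Over 33469 promoters of the same length those letters were found in 1.59%, 30.5% and 4.29%. The GC content of the matched windows was 50.4% for Vamp1 and 64.0% to 69.6% for the others, and the shares were not compared at equal GC content. The Egr matches of Syn2, Syp, Syt1 and Vamp2 overlapped GC boxes, so the GC box and Egr counts are not independent. For Vamp2 and Sv2b all 250 bases, and for Syt1 247, lie inside the annotated gene span, so these windows may not precede every start of those genes, and Vamp2 and Syt1 are among those counted for the GC box and the Egr motif. A match describes these letters only and was not tested as a site.

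Synapsins coat the vesicle surface and hold the reserve pool. Among them Syn2 had the member probe set of lowest p, and its 3 probe sets did not give one value. Probe set 1369482_a_at ran from 0.06 to 0.49 with a median of 0.20 in sucrose arrays, against -0.14 to 0.09 with a median of 0.01 in control arrays. All 6 sucrose arrays were above the control mean and 5 were above every control array, with sucrose array 5 the exception. The difference was 0.24 ± 0.07 (SE; group means 0.23 ± 0.15 and -0.00 ± 0.09, SD, n = 6 each), a 1.18-fold ratio (95% interval 1.07 to 1.30). Its unadjusted limma p was 0.0031 and its adjusted p 0.422, so that it failed the correction, and the exact permutation p was 0.00649.

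Syn2 probe set 1382850_at ran from 0.02 to 0.41 in sucrose arrays (median 0.05) and from -0.11 to 0.08 in control arrays (median 0.01). All 6 sucrose arrays again lay above the control mean, but only arrays 1 and 2, at 0.41 and 0.23, were above every control. The difference was 0.14 ± 0.06 (SE; adjusted p = 0.664), and without sucrose array 1 it was 0.08. The third probe set, 1370431_at, ran from -0.10 to 0.03 in sucrose arrays (median -0.01) and from -0.05 to 0.07 in control arrays (median -0.01). Its difference was -0.02 ± 0.03 with a 95% interval of -0.09 to 0.05, which lies below the interval of 0.09 to 0.38 of 1369482_a_at. Averaged over its 3 probe sets, Syn2 differed by 0.12 ± 0.05 (adjusted p = 0.599 over 14217 genes).

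Because the Syn2 probe sets disagreed, the difference between them was computed within each array, a test chosen after the values were seen. The value of 1369482_a_at minus that of 1370431_at ran from 0.14 to 0.50 in sucrose arrays and from -0.12 to 0.11 in control arrays, without overlap. The gap between groups was 0.25 ± 0.07 (SE), with an exact permutation p of 0.00216, the smallest that 12 arrays allow. Fitted with limma over all 9597 pairs of probe sets that share a gene, its unadjusted p was 0.0019 and its adjusted p 0.215. Such pairs had groups without overlap in 0.959% of cases, and 11.0% of them had an unadjusted p under 0.05, against 1 and 2 of the 12 pairs within these 10 genes. The other such pair was also in Syn2: 1370431_at minus 1382850_at differed by -0.15 ± 0.06 (unadjusted p = 0.0278, adjusted p = 0.377). Which Syn2 transcripts each probe set reads was not looked up, since probe sequences were not used here. The suffix _a_at is the manufacturer's mark for a probe set shared by transcripts of one gene.

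**Figure D2:**
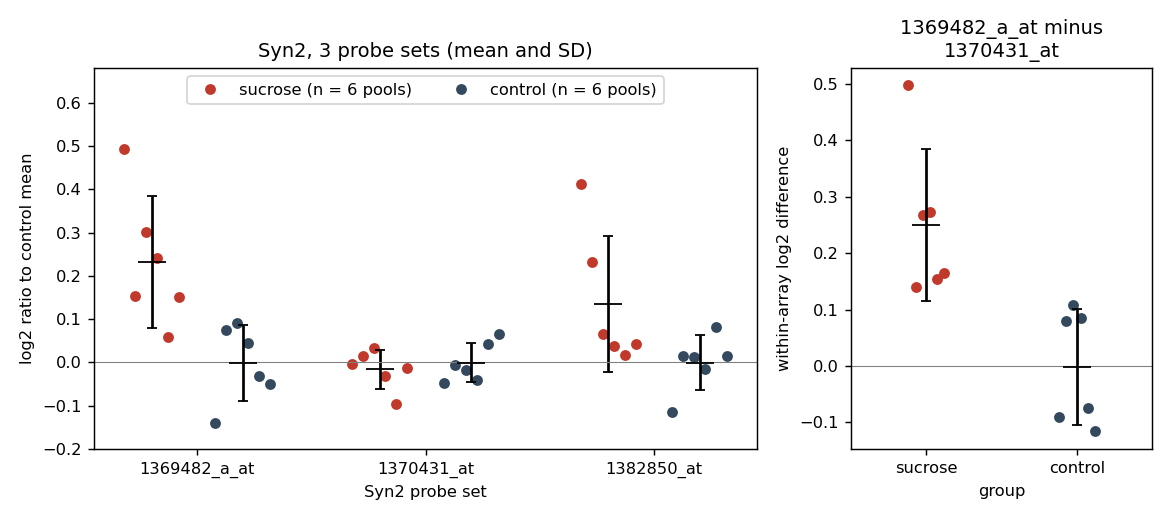
Left, log2 ratio to the control mean for the 3 Syn2 probe sets, each dot 1 array, sucrose in red and control in blue, with mean and SD (n = 6 pools each). Right, the within-array difference of 1369482_a_at minus 1370431_at, where all 6 sucrose arrays (0.14 to 0.50) lie above all 6 control arrays (-0.12 to 0.11).

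Syn1, the other abundant adult synapsin gene, showed no such gap. Probe set 1369251_a_at ran from -0.06 to 0.13 in sucrose arrays and from -0.03 to 0.09 in control arrays, and 1390196_at from -0.04 to 0.15 and from -0.06 to 0.03. The differences were 0.02 ± 0.04 and 0.02 ± 0.04 (adjusted p = 0.945 and 0.918), and neither interval reached a 1.08-fold ratio (upper bounds 1.075 and 1.072). Both were highest in sucrose array 1. Syn3, a synapsin gene linked mostly to developing neurons, had the widest spread of the members, with a within-group SD of 0.24 that exceeds 97.9% of all probe sets. It ran from -0.24 to 0.45 in sucrose arrays (median 0.16) and from -0.37 to 0.28 in control arrays (median 0.02). Its difference was 0.17 ± 0.12 (adjusted p = 0.808), with an interval of -0.09 to 0.42. It was 0.09 without control array 5, 0.11 without sucrose array 3 and 0.27 with the oligodendrocyte list as a covariate. With the replicate number as a block its unadjusted limma p was 0.0112 (adjusted p = 0.573), against 0.185 without the block. The labels name no pairing by replicate number, and the arrays were treated as unpaired.

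Of the integral vesicle proteins, Syp encodes synaptophysin, the most used marker of synaptic vesicles. Its probe set ran from -0.07 to -0.01 in sucrose arrays (median -0.02) and from -0.03 to 0.09 in control arrays (median -0.01). All 6 sucrose arrays lay below the control mean, which control array 3, at 0.09, pulled up, and the groups overlapped. The difference was -0.03 ± 0.03 (adjusted p = 0.875), with an interval of 0.939 to 1.02 on the fold scale.

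Sv2b encodes a vesicle glycoprotein of the SV2 family that is found mostly in glutamatergic neurons. Probe set 1369627_at ran from -0.07 to 0.35 in sucrose arrays (median 0.10) and from -0.20 to 0.11 in control arrays (median 0.02). Sucrose arrays 1, 2 and 3, at 0.31, 0.14 and 0.35, were above every control array, while arrays 4, 5 and 6, at 0.03, -0.07 and 0.06, lay inside the control range. Its difference was 0.14 ± 0.07 (adjusted p = 0.708). The other 2 probe sets differed by -0.01 ± 0.04 (1369628_at) and 0.02 ± 0.08 (1375142_at), with adjusted p of 0.960 and 0.970. Averaged over the 3, Sv2b differed by 0.05 ± 0.05 (adjusted p = 0.850).

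Syt1, the calcium sensor of fast release, had 1 probe set. It ran from 0.00 to 0.48 in sucrose arrays (median 0.11) and from -0.26 to 0.10 in control arrays (median 0.04). Sucrose arrays 1, 3 and 6, at 0.48, 0.25 and 0.16, were above every control array, and all 6 were above the control mean. The difference was 0.17 ± 0.08 (unadjusted p = 0.0501, adjusted p = 0.659), a 1.13-fold ratio with an interval of 1.00 to 1.27. Control array 1, at -0.26, lay far below the other controls, and the difference was 0.12 without it and 0.11 without sucrose array 1.

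Syn1 1369251_a_at, Syn2 1369482_a_at, Syn3, Syt1 and Sv2b 1369627_at were highest in sucrose arrays 1 and 3. For Syn1 these values were 0.135 and 0.0942, with control array 3 next at 0.0897, and its group difference was 0.02. In sucrose arrays 1 and 3 the pallial list was highest and the striatal list lowest. The pallial list was 0.12 and 0.10 there, against -0.06 to 0.00 in the other 4 sucrose arrays and up to 0.07 in controls. The striatal and central amygdala list was at -0.26 and -0.14 there, with control array 6 close to the latter at -0.13. The GABAergic list, at -0.01 and -0.02 there, lay inside its control range of -0.04 to 0.06. Of the 19 probe sets, 6 peaked in sucrose array 1 and 5 in control array 6, and the shares over all probe sets were not counted. Sucrose array 1 also had the highest spike-in value, 0.18 against at most 0.09 in the other arrays, and the lowest 3' minus 5' control value, -0.14 against -0.04 to 0.08. Its mean of 7 astrocyte markers was 0.17, against 0.00 to 0.08 in the other sucrose arrays and -0.12 to 0.05 in controls. With the pallial list as a covariate the differences were 0.20 for Syn2 1369482_a_at, 0.12 for Syt1 and 0.09 for Sv2b 1369627_at, with adjusted p of 0.372, 0.505 and 0.498. With sucrose arrays 1 to 3 left out they were 0.15, 0.08 and 0.01 (adjusted p = 0.926, 0.961 and 0.992). Syn3 differed by 0.02 in that setting, against 0.17 with all arrays. These probe sets were named for being highest in sucrose arrays 1 and 3, so smaller differences without those arrays followed from the choice. Fewer arrays also left less precision in that setting. Syn2 1369482_a_at differed by 0.19 with the choroid plexus list as a covariate. Sucrose array 5, where that probe set was lowest among sucrose arrays, had the highest mean of 7 measured oligodendrocyte markers (8 listed), at 0.39, against -0.14 to 0.16 in the other sucrose arrays and -0.09 to 0.07 in controls. Without sucrose array 5 the difference was 0.27 (adjusted p = 0.346), and a larger one had to follow from leaving out the lowest sucrose value. The part of tissue composition in these values was not tested further.

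**Figure D3:**
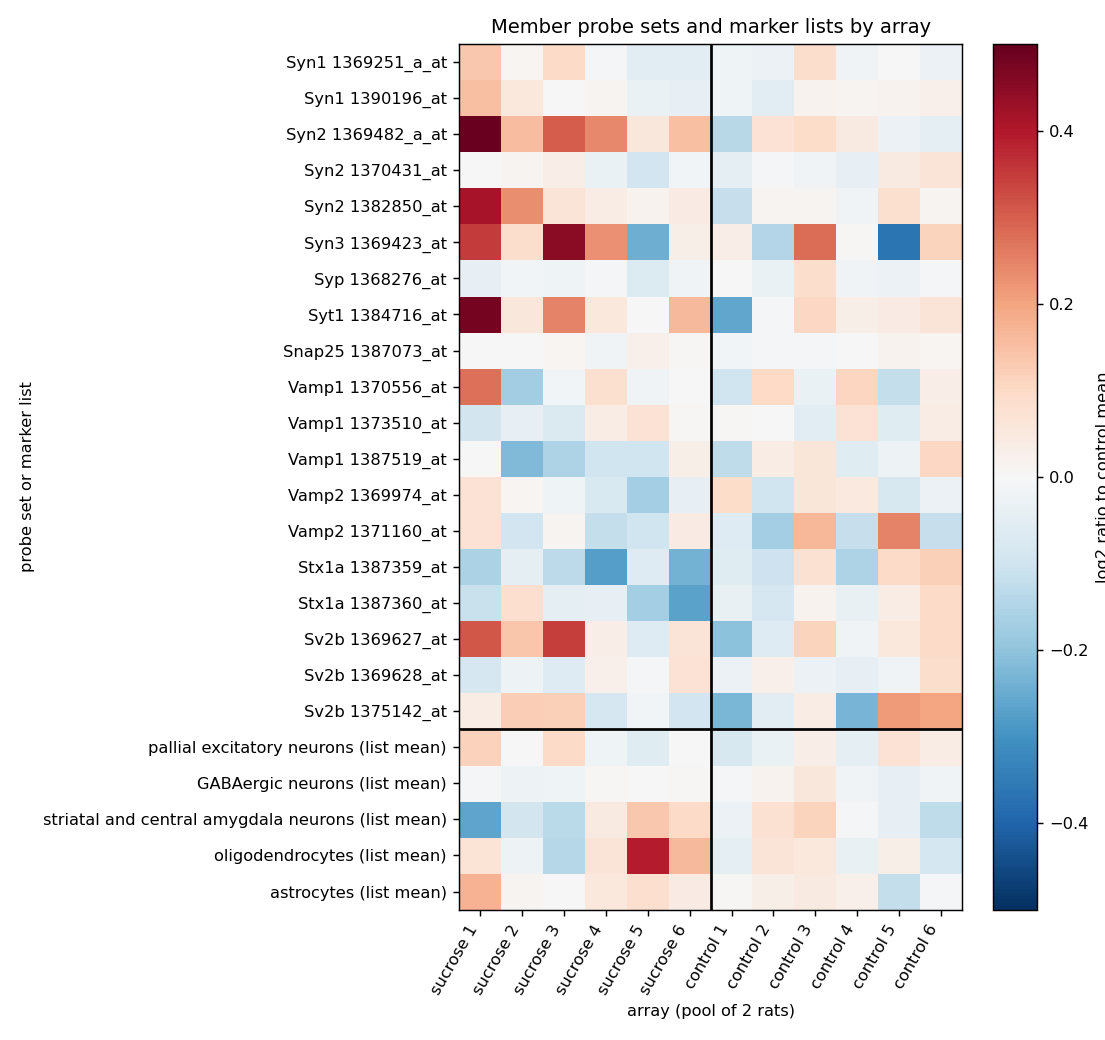
Log2 ratio to the control mean (colour) for the 19 probe sets and, below the black line, the mean of 5 marker lists, with the 6 sucrose arrays left of the 6 control arrays. Syn2 1369482_a_at, Syn3, Syt1 and Sv2b 1369627_at are reddest in sucrose arrays 1 and 3, where the pallial list is at 0.12 and 0.10 and the striatal list at -0.26 and -0.14. Syn1 1369251_a_at is also highest there, at 0.135 and 0.0942.

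Among the SNAREs of the plasma membrane, Stx1a encodes syntaxin-1A, the partner that binds SNAP-25 and VAMP in the fusion complex. Both of its probe sets had a lower mean after sucrose, and neither passed the adjusted test. Probe set 1387359_at ran from -0.27 to -0.04 in sucrose arrays (median -0.14) and from -0.15 to 0.12 in control arrays (median 0.01). All 6 sucrose arrays were below the control mean and 3 were below every control array. The difference was -0.15 ± 0.06 (SE; group means -0.15 ± 0.09 and -0.00 ± 0.12, SD, n = 6 each), a ratio of 0.903 with an interval of 0.830 to 0.983. Its unadjusted limma p was 0.0215 and its adjusted p 0.586, and the exact permutation p was 0.0411. Leaving out sucrose array 4 or control array 6 moved the unadjusted p to 0.053.

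Stx1a probe set 1387360_at ran from -0.27 to 0.08 in sucrose arrays (median -0.08) and from -0.08 to 0.10 in control arrays (median -0.01). Here 5 sucrose arrays were below the control mean, and array 2, at 0.08, was not. Its difference was -0.09 ± 0.05 (adjusted p = 0.746), and the difference between the 2 probe sets, -0.06 ± 0.06, was within its error. Averaged over both, Stx1a differed by -0.12 ± 0.05 (adjusted p = 0.601). With sucrose arrays 1 to 3 left out, a setting chosen after the values were seen, the differences were -0.19 and -0.16 (adjusted p = 0.926 for both). With the pallial list as a covariate they were -0.16 and -0.10 (adjusted p = 0.420 and 0.570). The second was smaller in other settings, at -0.06 without sucrose array 6 and -0.05 with the oligodendrocyte list as a covariate. It was larger, at -0.13 (adjusted p = 0.608), without sucrose array 2 alone. That array was the only sucrose array above the control mean, so a larger difference without it followed from the choice.

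Snap25, whose product supplies a pair of helices to the fusion complex, had the most even values of all members. It ran from -0.0195 to 0.0236 in sucrose arrays (median 0.0025) and from -0.0152 to 0.0159 in control arrays (median -0.0028). Its within-group SD of 0.013 was the 4th lowest of the 31042 probe sets. The difference was 0.00 ± 0.02 (adjusted p = 0.993), and its interval of 0.966 to 1.04 on the fold scale was the narrowest of the members. Since ratios keep no level, this evenness could not be set against the brightness of the probe set.

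The vesicular SNAREs Vamp1 and Vamp2 encode synaptobrevin-1 and synaptobrevin-2, of which synaptobrevin-2 is the main form in forebrain. The 2 Vamp2 probe sets differed by -0.04 ± 0.05 (1369974_at) and -0.02 ± 0.07 (1371160_at), with adjusted p of 0.903 and 0.969 and intervals of 0.911 to 1.04 and 0.886 to 1.09 on the fold scale. The first ran from -0.17 to 0.07 in sucrose arrays and from -0.10 to 0.09 in control arrays. The second ran from -0.12 to 0.07 in sucrose arrays and from -0.17 to 0.25 in control arrays. For Vamp1 the 3 probe sets differed by -0.09 ± 0.05 (1387519_at), -0.01 ± 0.04 (1373510_at) and 0.03 ± 0.07 (1370556_at), with adjusted p of 0.736, 0.962 and 0.960. The Vamp1 probe set 1387519_at ran from -0.22 to 0.03 in sucrose arrays (median -0.10) and from -0.13 to 0.10 in control arrays (median 0.01), with 5 sucrose arrays below the control mean. Vamp1 1370556_at was highest in sucrose array 1, at 0.28, and lowest in sucrose array 2, at -0.17. Its difference was -0.02 without array 1, 0.07 without array 2 and 0.02 with sucrose arrays 1 to 3 left out.

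**Figure D4:**
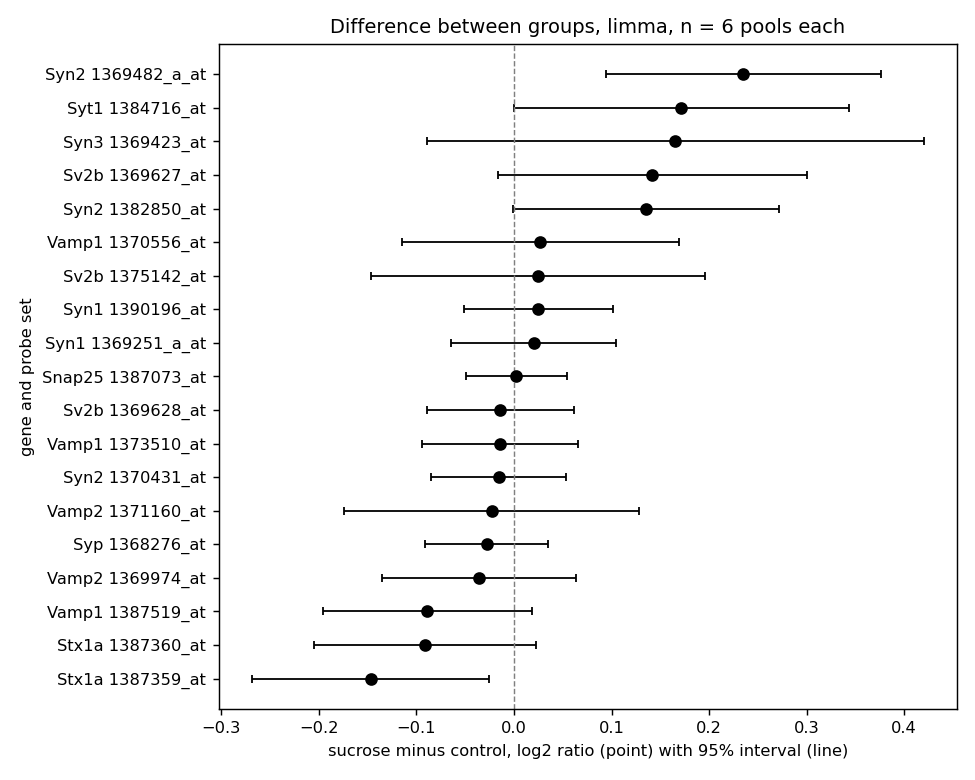
Sucrose minus control in log2 ratio (point) with its 95% interval (line) from limma for the 19 probe sets, ordered by size, n = 6 pools each. The intervals exclude 0, without adjustment, for Syn2 1369482_a_at at the top and Stx1a 1387359_at at the bottom, and Snap25 has the shortest line.

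Spread between pools differed widely among the members and set what could be seen. The within-group SD ran from 0.013 for Snap25 and 0.04 for Syp to 0.15 for Syt1 and Sv2b 1375142_at and 0.24 for Syn3. The median of the 19 was 0.10, against 0.09 for all probe sets. Probe sets of one gene also differed in spread: for Syn2 the SD was 0.05 for 1370431_at and 0.12 for each of the others, and for Sv2b it was 0.05, 0.14 and 0.15. Over the 12 pairs of probe sets within a gene, the Pearson correlation of within-group deviations ran from -0.32 to 0.71. The highest was that of the Syn1 pair, with a Pearson r of 0.71 (permutation p = 0.027, adjusted p = 0.162 over 12 pairs) and a Spearman rho of 0.64 (permutation p = 0.050, adjusted p = 0.179). It was 0.43 without the 2 arrays farthest from the median. None of the 12 passed after adjustment.

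**Figure D5:**
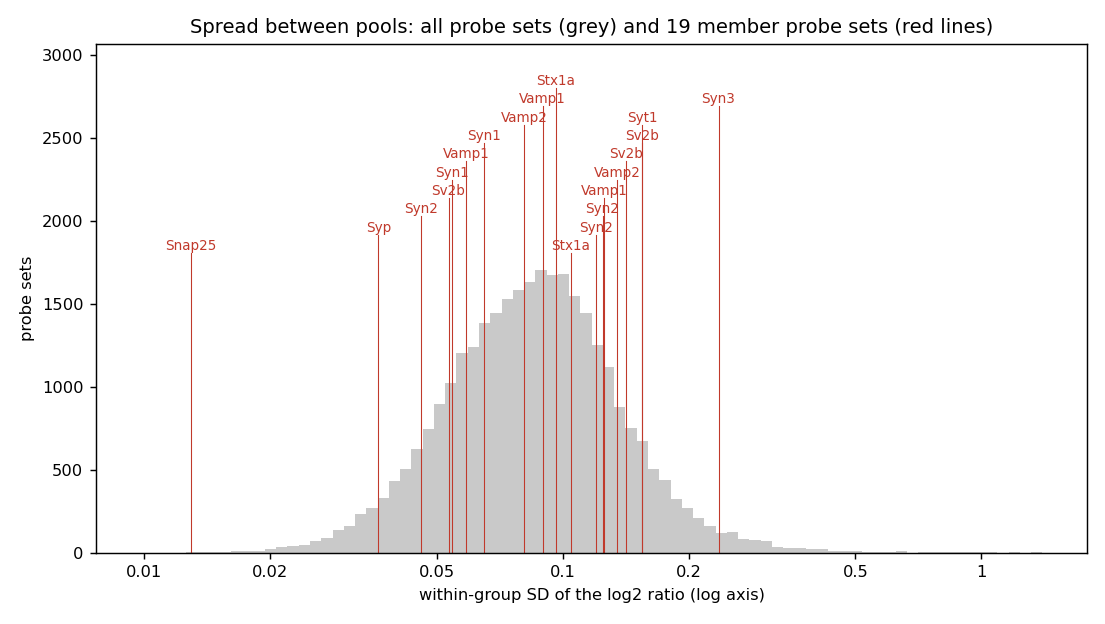
Number of probe sets (vertical axis) by within-group SD of the log2 ratio (horizontal axis, log scale) for all 31042 probe sets in grey, with a red line for each of the 19 member probe sets. Snap25 (0.013) and Syp (0.04) sit at the left edge, and Syn3 (0.24) at the right.

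The genes whose within-group deviations over the 12 arrays were most like those of Syn2 1369482_a_at were Hpcal4, Kidins220, Ube2j1, Pcnx4 and Fbxo9, with a Pearson r of 0.95, 0.95, 0.94, 0.94 and 0.93. For Syn3, the member of largest control SD, they were Ube2g2, Btnl3, Ripk3, Wdr13 and Camk2n1, with r from 0.87 to 0.91. These are the highest of all named genes over only 12 arrays, which share one normalization, and they are given as a description with no test.

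A wider list of 76 vesicle and fusion genes gave 66 genes with 103 probe sets. Of these probe sets 55 were higher and 48 lower, 4 were higher and 0 lower at an unadjusted p under 0.05, and 0 passed the adjusted test, where the array as a whole had 4.50% higher and 3.07% lower. The median difference was 0.01, against -0.01 over all probe sets. The 4 belonged to 3 genes. Stxbp5 (tomosyn, which competes with VAMP for syntaxin) differed by 0.14 ± 0.05 and 0.11 ± 0.04 in a pair of probe sets and by -0.01 ± 0.04 in the other. Syt6, a synaptotagmin, differed by 0.23 ± 0.08 and Cplx2, a complexin that clamps and aids SNARE fusion, by 0.24 ± 0.10. Their adjusted p ran from 0.509 to 0.596.

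Next in order of p on the upper side, each gene given by its probe set of lowest p, were Nsf (0.11 ± 0.05), the ATPase that takes spent SNARE complexes apart, Syt11 (0.17 ± 0.09) and Synj1 (0.07 ± 0.03), a phosphatase of vesicle recycling. On the lower side were Syt3 (-0.07 ± 0.04), Syngr1 (-0.10 ± 0.06), Cplx1 (-0.08 ± 0.05), Syt7 (-0.11 ± 0.07), Syt17 (-0.08 ± 0.05) and Rab3a (-0.10 ± 0.07), the last a vesicle GTPase. Other probe sets of these genes lay nearer 0: the other Nsf values were 0.06 and 0.01, those of Syt7 -0.05 and 0.02, and those of Syt3, Syngr1, Cplx1, Syt17 and Rab3a -0.02, -0.02, -0.00, -0.07 and -0.03. Close relatives of the members were measured too. Sv2a differed by 0.03 ± 0.04 and Sv2c by -0.06 ± 0.06, beside the Sv2b values above. Syt2, another fast calcium sensor, differed by -0.05 ± 0.06, Vamp3 by 0.04 ± 0.03, and the 2 Snap23 probe sets by 0.03 ± 0.05 and 0.04 ± 0.06. The 3 Snap29 probe sets lay between -0.03 and 0.11, and the 2 of Synpr, a synaptophysin relative, at -0.01 and -0.04. The lowest adjusted p in this paragraph was 0.681, for Nsf. The authors' deposited table holds 0 probe sets of this wider list.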

How the data were processed

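RNA of 12 BLA pools, each from 2 rats, was hybridised to Affymetrix rat arrays. The deposited values are linear ratios that the authors made from RMA signals (named with no version in the submitters' processing notes): per probe set the control arrays average 1, within 2.02e-07. A second file of the authors gives 145 probe sets with a p-value and mean ratios, per the file headers, with a test not given in the sources used here. Precision is limited by the number of arrays, 6 per group, and the labels give no batch.

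Of 31099 rows, 57 manufacturer controls were left out. The platform annotation gave 1 symbol to 20826 probe sets, several to 436 and none to 9780, and only the first were named. A model of group alone, without a variance trend, was fitted to the log2 values in limma 3.58.1 (R 4.3.3). Its p-values are two-sided and were adjusted by Benjamini and Hochberg's method across 31042 probe sets. The fit was tested on simulated data. Intervals are at the 95% level. Exact permutation tests used all 924 assignments of the arrays. No filter on dim probe sets was possible.

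Members and lists were chosen with earlier results of these data known. All member probe sets are reported. From the wider list the rule names the 6 genes of lowest p in each direction and close paralogs. Marker lists covered pallial, GABAergic and striatal neurons, oligodendrocytes, astrocytes, microglia, endothelium and choroid plexus. Replicate numbers were checked for pairing: deviations of same-numbered arrays correlated at -0.15 to 0.19 over all probe sets. Only for number 4 was each array the closest match of the other across groups. The rats differ, and the arrays were treated as unpaired. Since the labels give no batch, a pairing by batch could not be checked. Alternatives were a replicate block, other normalizations, variance priors, covariates, a Welch test and leaving out each array.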

Additional observations from a re-analysis of the deposited data

Results flagged for a closer look

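In 38 groups of 6 values (19 probe sets, 2 groups), 3 had an array far from the other 5 by Dixon's criterion at the 95% level, where chance gives about 1.9. Control array 3 was high for Syn1 1369251_a_at, at 0.0897 against 0.0024 in the next control, and for Syp, at 0.0892 against -0.0010. Control array 1 was low for Syt1, at -0.259 against -0.0109 in the next control. Without control array 3 the difference was 0.04 for Syn1 1369251_a_at and -0.01 for Syp, and without control array 1 it was 0.12 for Syt1.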

How the results depend on the processing

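No member passed an adjusted p of 0.05 in the 532 of 551 values that had one (19 probe sets, 29 alternatives, the exact permutation test giving none). The choroid plexus and striatal covariates and the omission of sucrose arrays 1 to 3 were chosen after seeing the data. The count over the whole array was 0, with 0 to 1 when 1 array was left out (Phip without sucrose array 5 and an unnamed probe set without sucrose array 3) and 1 (Phip) with the oligodendrocyte covariate. The replicate block gave 0 calls and an adjusted p of 0.563 for Syn2 1369482_a_at. In this balanced design such a block cannot move the difference. Direction was kept under all 29 alternatives by 10 of the 19 probe sets. The block, the variance priors, the Welch test and the exact permutation test kept it by construction. Syn2 1369482_a_at ran from 0.12, which is the mean over the gene's probe sets, to 0.27 (adjusted p 0.324 to 0.926). The lowest value of that probe set itself was 0.15, with sucrose arrays 1 to 3 left out. Stx1a 1387359_at ran from -0.19 to -0.10 (adjusted p 0.393 to 0.926), where -0.10 is a difference of linear ratios and not of log2 values. Members at an unadjusted p under 0.05 numbered 1 to 5 higher and 0 to 2 lower over the settings, with 5 higher without sucrose array 5 or with the oligodendrocyte covariate, and 0 lower without sucrose array 4 or control array 6. The shares over the whole array were not counted in the alternative settings, so these numbers have no background to be set against. Signal over background could not be used, since ratios hold none.

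Small differences turned sign, and the cause was not tested. Vamp1 1370556_at was at -0.0073 with array weights, -0.0078 with the spike-in covariate, -0.0200 with the choroid plexus covariate and -0.0254 as the gene mean. Vamp2 1371160_at was at 0.0180 with array weights and 0.0127 with the spike-in covariate. With the oligodendrocyte covariate Syn2 1370431_at was at 0.0043 and Snap25 at -0.000365, and with the pallial covariate Vamp1 1373510_at was at 0.0047 and Sv2b 1375142_at at -0.0199. As gene means Syn2 1370431_at and Sv2b 1369628_at took 0.118 and 0.0509. Without sucrose arrays 1 to 3 the Syn1 values were -0.0403 and -0.0193, that of Vamp1 1373510_at 0.0394, and those of Sv2b 1369628_at and 1375142_at 0.0291 and -0.0548. With 1 array left out the ranges that crossed 0 were -0.00315 to 0.0380 (Syn1 1369251_a_at), -0.000198 to 0.0378 (Syn1 1390196_at), -0.0259 to 0.000289 (Syn2 1370431_at), -0.00192 to 0.00669 (Snap25), -0.0238 to 0.0664 (Vamp1 1370556_at), -0.0316 to 0.00149 (Vamp1 1373510_at), -0.0548 to 0.0283 (Vamp2 1371160_at), -0.0311 to 0.00394 (Sv2b 1369628_at) and -0.0192 to 0.0694 (Sv2b 1375142_at).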
